A study of Mus with 8 samples.

Results

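The ligands of the epidermal growth factor (EGF) family and their receptors, the ErbB tyrosine kinases, were followed in cultured mouse aortic smooth muscle cells with and without deletion of Tek, the gene of the angiopoietin receptor Tie2. The set holds 10 genes, the ligands Egf, Hbegf, Areg, Ereg, Btc, Tgfa and Nrg1 and the receptors Egfr, Erbb2 and Erbb3, and their probes were taken by the old or current gene symbol of the array annotation. This gave 19 of the 46237 probes on the array, for 9 of the 10 genes and of the 20289 genes named by a probe. Areg has no probe under its symbol in the annotation used here and was not analysed here. The 2 probes of Egf came into view for their difference between the groups in an earlier analysis of these data. Their values are therefore given as a description without a test of KO against WT. The other 17 probes are described apart from them.

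The cells came from the aortas of male C57 black 6 mice aged 8 weeks and were studied at passage 1, on 1 Illumina bead array per culture. The 4 KO cultures carried the floxed Tie2 allele together with a Cre recombinase transgene under the SM22α promoter, which is active in smooth muscle, and the 4 WT cultures carried the floxed allele without Cre. KO and WT therefore differ in the presence of Cre as well as in Tek, and these cannot be told apart. The array descriptions give 2 or 3 numbers joined by slashes for each culture, whose meaning is not stated, so it is not known whether each culture came from 1 animal, and p-values reflect no more than the variation among these 8 cultures.

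EGF family ligands are made as membrane proteins, and proteases of the ADAM family cut most of them free. EGF, amphiregulin and transforming growth factor alpha bind the EGF receptor, whereas heparin-binding EGF-like growth factor, betacellulin and epiregulin bind the EGF receptor and ErbB4, and neuregulins bind ErbB3 and ErbB4. Binding lets the receptors pair and start the Ras and MAP kinase cascade, and in vascular smooth muscle heparin-binding EGF-like growth factor is known to drive growth and migration and to relay signals from angiotensin and other receptors.

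Tek, the targeted gene, stood at 4.78, 5.56, 5.36 and 5.26 in KO replicates 1 to 4, against 6.44, 7.42, 6.66 and 6.35 in WT replicates 1 to 4, as log2 intensities after background correction and normalization with neqc. The groups did not overlap, at a log2 difference of -1.48 (standard error 0.27) and a limma adjusted p of 0.66. Since the position of the probe in the gene is unknown here, it may lie outside the deleted exons and is then no check of the deletion. The share of probes detected (detection p-value under 0.05) lay between 44.9% and 49.5% over the 8 arrays. Of 9 smooth muscle markers 8 were kept for testing, and Acta2, smooth muscle actin, stood between 14.56 and 14.64 on all 8 arrays, near the top of the scale, whereas Cnn1 (calponin) was detected on 4 arrays and Synpo2 on 3. All 10 macrophage markers were kept as well, and their mean log2 intensity ranged from 6.56 to 9.80 in KO and from 7.29 to 10.99 in WT. WT replicate 2 was the lowest of the 8 cultures for 21.8% of the 21275 kept probes and the highest for 18.6%, in both respects more often than any other culture. KO replicates 3 and 4 were hybridised on slide 2 and the other 6 cultures on slide 1.

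Outside Egf, 10 of the 17 probes were detected on at least 4 of the 8 arrays and were tested, and they cover Hbegf, Btc, Ereg, Nrg1, Egfr and Erbb2. The remaining 7 probes, which include those of Tgfa and Erbb3, lay near background and are given by their values. The first question is whether any tested probe differed between KO and WT. 0 of the 10 passed an adjusted p of 0.05 in limma over all 21275 kept probes, where 0 passed as well (0%). 0 of the 10 had an unadjusted p under 0.05, against 6.75% of all kept probes, and in 0 of the 10 were the 4 KO cultures all above or all below the 4 WT cultures, against 3.78% of all kept probes. By sign, 4 probes were higher and 6 lower in KO, and their median was -0.02 on the log2 scale, against a median of 0.02 over all kept probes. Of the 10 probes, 5 read Egfr, and 4 of those had KO replicate 3 and WT replicate 1 lowest. These counts therefore do not rest on 10 separate genes. The limma adjusted p of the 10 probes lay between 0.76 and 1.00.

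**Figure D1:**
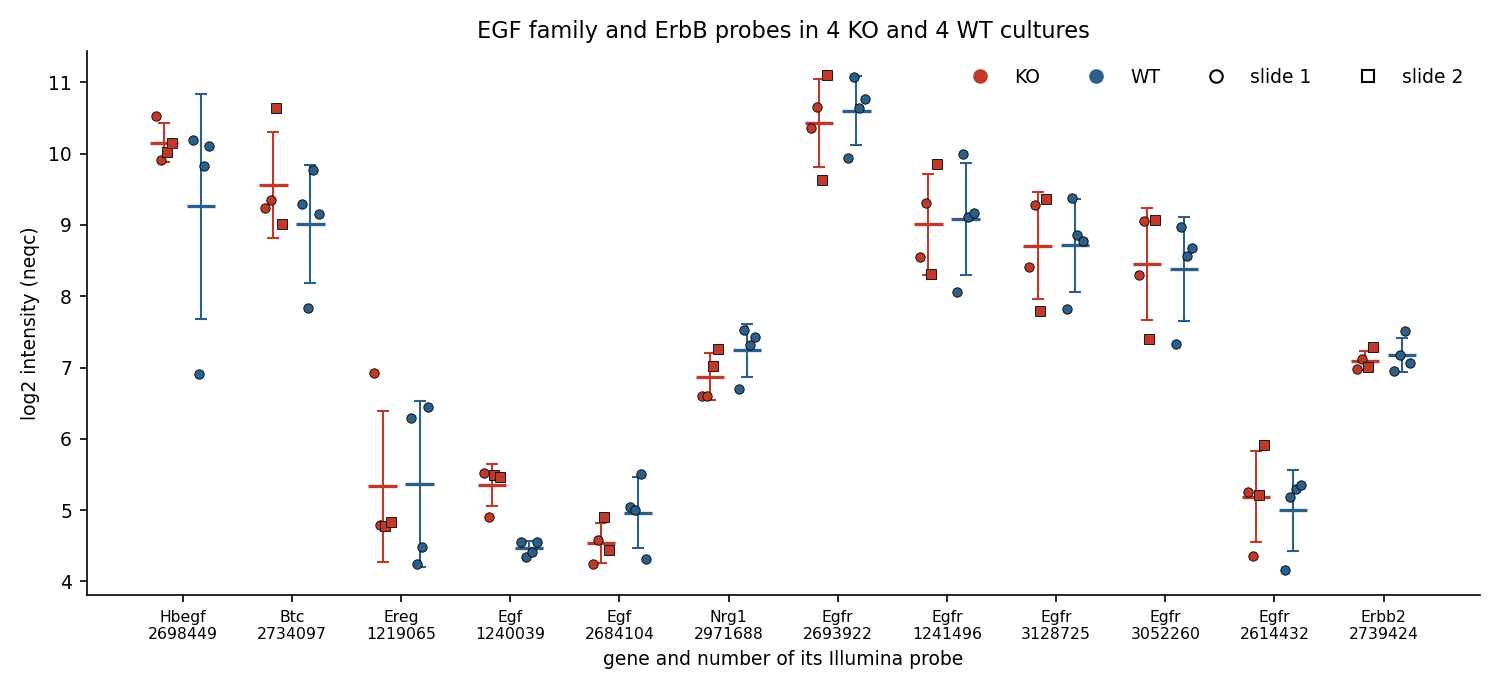
Log2 intensity (neqc, vertical axis) of each kept EGF family and ErbB probe in KO (red, left) and WT (blue, right) cultures, with the group mean and SD (n = 4 each), circles for slide 1 and squares for slide 2. KO and WT overlap for every probe shown but the Egf probe ILMN_1240039, and Hbegf stands at 6.91 in WT replicate 2 and at 9.82 or more in the other 7 cultures.

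**Figure D2:**
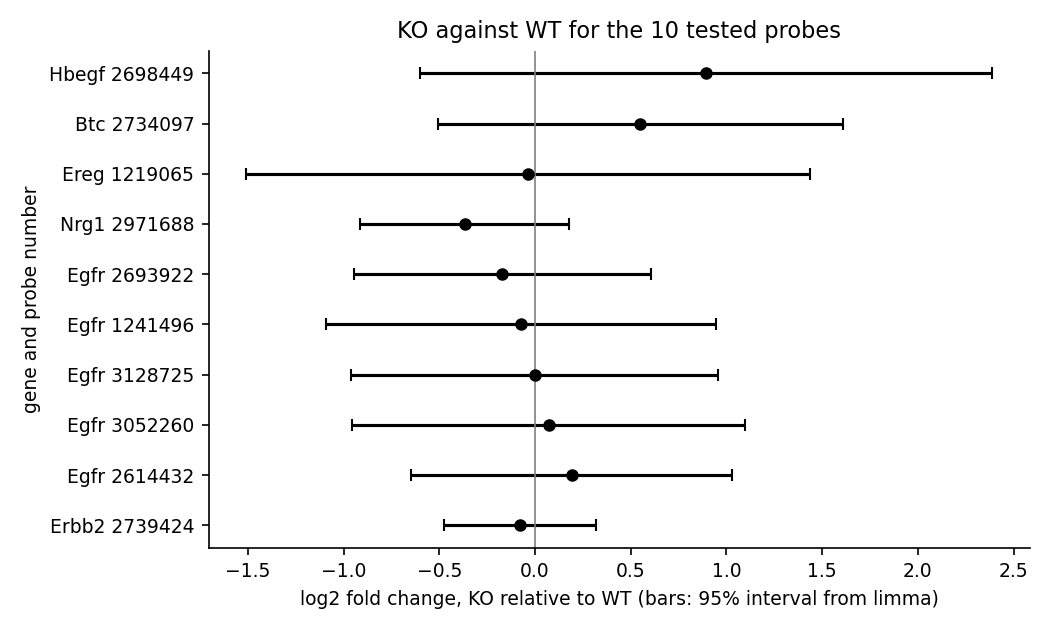
Log2 fold change of KO relative to WT (horizontal axis) for the 10 tested probes, with 95% intervals from limma. Every interval crosses 0; the interval of Erbb2, from -0.48 to 0.32, is the shortest and that of Hbegf, from -0.60 to 2.39, the longest.

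Hbegf encodes heparin-binding EGF-like growth factor. Its probe ILMN_2698449 stood at 10.53, 9.91, 10.03 and 10.15 in KO replicates 1 to 4, against 10.19, 6.91, 9.82 and 10.11 in WT replicates 1 to 4 (log2 intensity). 7 of the 8 cultures lay within 9.82 and 10.53, and WT replicate 2 lay far below them. The means were 10.16 ± 0.27 in KO and 9.26 ± 1.57 in WT (SD, n = 4 each), a log2 fold change of 0.90 (standard error 0.66), with a limma adjusted p of 0.78. Without WT replicate 2 the log2 fold change was 0.11, so its size came from that 1 culture, and only 1.88% of all kept probes had a larger standard error. Within slide 1 it was 0.96. In bulk RNA, fewer cells of a type and less RNA per cell cannot be told apart.

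The low Hbegf value was also plain in the unprocessed scanner values. The bead mean was 210 in WT replicate 2, with a standard error between beads of 8.05 over 42 beads, and lay between 919 and 1657 in the other cultures. On the log2 scale after normalization Hbegf was 8.77-fold lower there than the mean of the other 3 WT cultures. The other Hbegf probe, ILMN_2569725, listed under the old symbol Hegfl and a cDNA record, was detected on 0 of 8 arrays and stood between 4.18 and 4.70.

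Markers of several cell types stood apart in the same culture. The mean log2 intensity of the 8 kept smooth muscle markers was 7.75 in WT replicate 2. It was 8.96 to 9.13 in KO and 8.51 to 9.24 in the other WT cultures. Of these 8 genes 7 had their lowest value in WT replicate 2. Among them, Cnn1 lay below the lowest detected level of that array, and Acta2 spanned only 14.56 to 14.64 over all cultures. The order of the cultures for Cnn1 and Acta2 therefore says little. The contractile myosin Myh11, for example, stood at 5.23 in WT replicate 2 and at 7.68 or more in each other culture. Of the 10 macrophage markers, 8 had their highest value in WT replicate 2, where their mean was 10.99. The mean of the 6 kept fibroblast markers was 9.09 there, the highest of the 8 cultures. Of these 6 genes 4 had their highest value there, but Cd34 and Dpt did not. Dpt stood at 5.92 in WT replicate 2, below the other WT cultures (6.84 to 9.37). The part of these shifts in the Hbegf value was not tested.

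Among kept probes with 1 gene and a similar spread over the cultures, 3 genes had the pattern most like that of Hbegf. They were Nppb, the B-type natriuretic peptide gene, Cav1, the main structural protein of caveolae, and Dusp4, a phosphatase of MAP kinases, with root mean square differences from Hbegf of 0.27, 0.29 and 0.31 log2 units over the 8 cultures and among 1304 candidate probes. Cav1 stood at 13.49, 12.61, 13.04 and 12.69 in KO replicates 1 to 4, against 13.47, 9.32, 12.24 and 12.79 in WT replicates 1 to 4. Nppb was 4.68 in WT replicate 2 and between 7.37 and 8.51 elsewhere. These genes shared above all the low value in that culture.

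**Figure D3:**
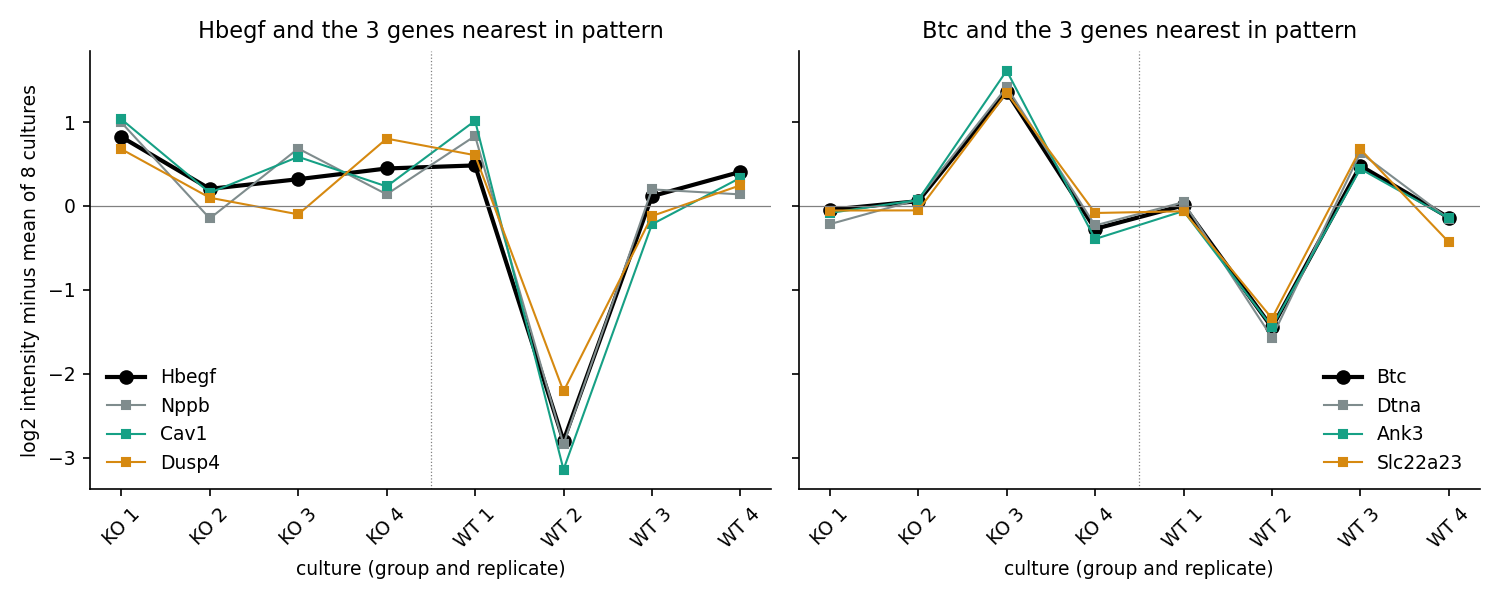
Log2 intensity minus the mean of the 8 cultures (vertical axis) for Hbegf (left) and Btc (right) with the 3 genes nearest in pattern, by culture, KO left of the dotted line and WT right of it. Hbegf, Nppb, Cav1 and Dusp4 share a trough in WT replicate 2; Btc, Dtna, Ank3 and Slc22a23 share that trough and a peak in KO replicate 3.

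Btc encodes betacellulin, a ligand of the EGF receptor and ErbB4. Its probe was detected on all 8 arrays and stood at 9.24, 9.34, 10.65 and 9.01 in KO replicates 1 to 4, against 9.29, 7.84, 9.76 and 9.15 in WT replicates 1 to 4. The highest culture was KO replicate 3 and the lowest WT replicate 2, and the other 6 lay between 9.01 and 9.76 in both groups. The means were 9.56 ± 0.74 in KO and 9.01 ± 0.82 in WT (SD, n = 4 each), a log2 fold change of 0.55 (standard error 0.47) and a limma adjusted p of 0.80. It was 0.16 without WT replicate 2, 0.19 without KO replicate 3 and 0.28 within slide 1.

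The genes nearest to Btc in pattern were Dtna (dystrobrevin alpha, a cytoskeletal partner of dystrophin), Ank3 (ankyrin G, a membrane scaffold) and Slc22a23, a member of a transporter family, at root mean square differences of 0.10, 0.10 and 0.15 over the 8 cultures and among 4357 candidate probes. Dtna stood at 8.44, 8.73, 10.07 and 8.42 in KO replicates 1 to 4, against 8.70, 7.09, 9.29 and 8.50 in WT replicates 1 to 4. Schwann cell markers were set beside Btc. The mean of the 5 kept markers was 8.08, 8.51, 9.51 and 8.20 in KO replicates 1 to 4, against 8.81, 7.43, 8.78 and 8.06 in WT replicates 1 to 4. Sox10, a transcription factor of neural crest and glial cells, stood at 10.43, 10.90, 12.02 and 10.76 in KO, against 10.78, 9.68, 11.37 and 10.46 in WT, again highest in KO replicate 3 and lowest in WT replicate 2. Ngfr, the low-affinity nerve growth factor receptor, ranged from 11.43 to 13.11 in KO and from 10.81 to 12.36 in WT. The other 3 kept markers followed this order in part: Mbp, a myelin protein, was highest in WT replicate 1 (9.92) and lowest in WT replicate 2 (6.09), Cdh19 was highest in KO replicate 3 (8.43) and lowest in KO replicate 1 (5.92), and S100b was highest in KO replicate 3 (5.65) and lowest in KO replicate 4 (4.34). Foxd3 was detected on 0 arrays. The mean of the 5 kept endothelial markers was 6.48, 6.97, 7.39 and 6.96 in KO replicates 1 to 4, against 6.44, 5.81, 7.41 and 6.74 in WT replicates 1 to 4, and 4 of these 5 genes were lowest in WT replicate 2. The part of either cell type in the Btc values was not tested.

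**Figure D4:**
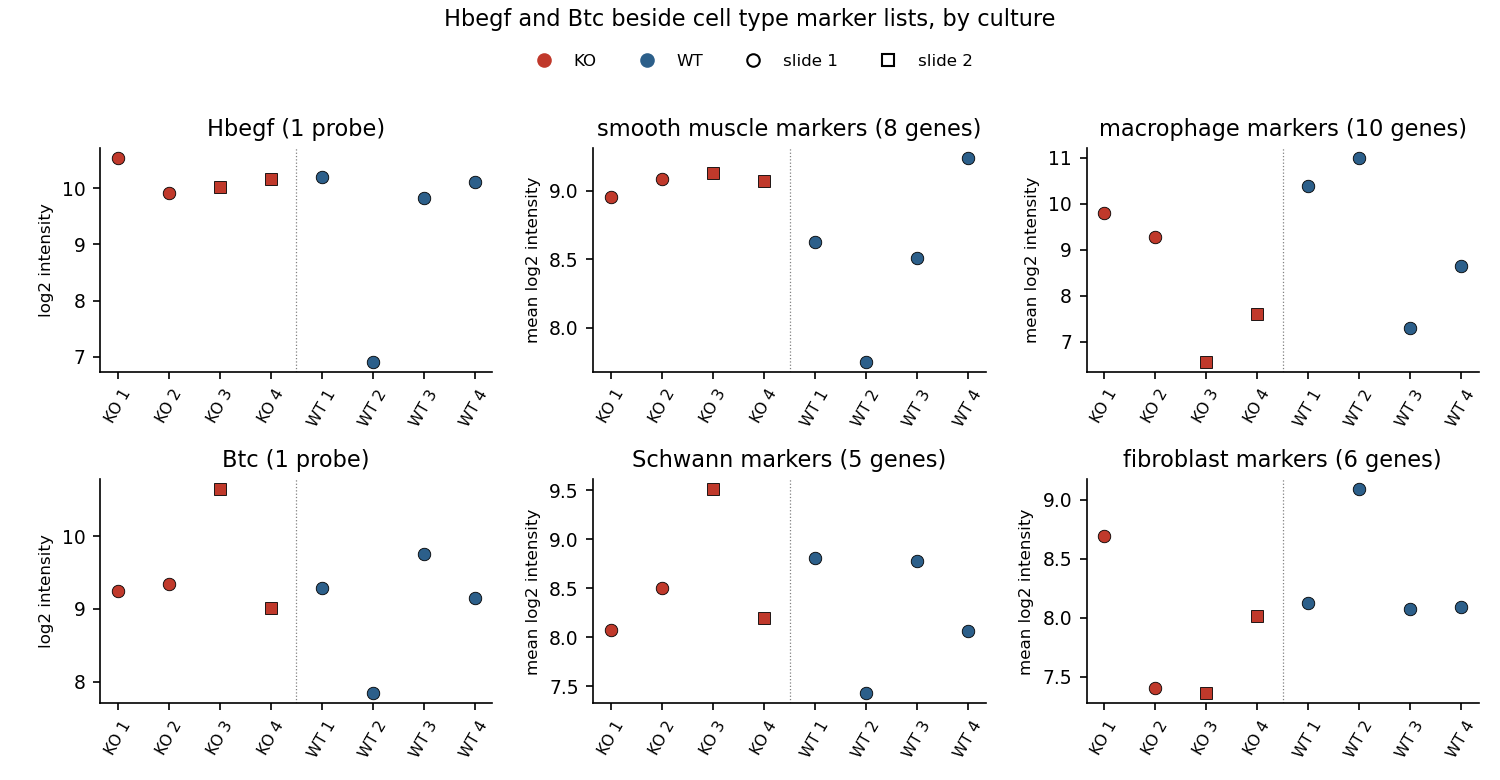
Log2 intensity of Hbegf and Btc, and mean log2 intensity of smooth muscle, macrophage, Schwann and fibroblast marker lists (vertical axes, each on its own scale), by culture, KO in red left of the dotted line and WT in blue. In WT replicate 2, Hbegf (6.91), Btc (7.84), smooth muscle markers (7.75) and Schwann markers (7.43) are each at their lowest and macrophage (10.99) and fibroblast markers (9.09) at their highest.

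Ereg encodes epiregulin. In the RefSeq gene order of assembly GRCm38.p6, Ereg, Areg and Btc follow each other as consecutive protein-coding genes. Ereg probe ILMN_1219065 stood at 6.92, 4.80, 4.78 and 4.84 in KO replicates 1 to 4, against 6.29, 4.24, 4.48 and 6.45 in WT replicates 1 to 4. KO replicate 1 and WT replicates 1 and 4 were high and the other 5 cultures lay at 4.84 or below, so that high and low cultures occurred in both groups. The probe was detected in 4 of 4 KO and 2 of 4 WT cultures. The log2 fold change was -0.03 with a standard error of 0.65 and a limma adjusted p of 0.99, and its sign differed between settings. A second Ereg probe, ILMN_2735702, was detected on 0 of 8 arrays and stood between 4.14 and 4.31, so the high values of the first probe had no counterpart in it. In WT replicate 2, the lowest culture for Btc, Ereg was not detected, and the same held for WT replicate 3. Both values lay below the lowest detected level of their array, so their order carries no meaning. KO replicate 3, the highest for Btc, was among the low ones for Ereg.

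Egf encodes the founding ligand of the family, and its 2 kept probes went opposite ways. Probe ILMN_1240039, annotated to a cDNA record, stood at 5.52, 4.91, 5.49 and 5.47 in KO replicates 1 to 4, against 4.55, 4.34, 4.41 and 4.56 in WT replicates 1 to 4. It was detected in 4 of 4 KO and 0 of 4 WT cultures, so it was kept through its KO cultures alone. It also came into view for this difference, so its values are a description and no evidence of a difference. Under this background correction, and not under others, the probe was at least 1.73-fold higher in KO. For that bound each WT culture took its own value or the lowest value of a detected probe on its array, whichever is higher. Probe ILMN_2684104, annotated to a RefSeq transcript, stood at 4.24, 4.57, 4.90 and 4.44 in KO, against 5.05, 5.00, 5.50 and 4.31 in WT, and was detected in 1 of 4 KO and 3 of 4 WT cultures.

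All Egf values lay close to background. For the first probe the bead means were 124 to 145 in KO and 92.4 to 118 in WT, with standard errors between beads of up to 9.79. The difference of that probe was 0.88 on the log2 scale under the detection-based background, 0.28 in the authors' value table and 0.03 with control-like probes as negative controls. For the second probe these values were -0.43, -0.14 and -0.01. Both signs were kept across these settings, and the size of the difference depended on the background correction.

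Nrg1 encodes neuregulin 1, a ligand of ErbB3 and ErbB4. Of its 4 probes, 1 was detected on all 8 arrays and the other 3 on 1, 1 and 2 arrays. The detected probe, ILMN_2971688, stood at 6.60, 6.60, 7.02 and 7.27 in KO replicates 1 to 4, against 6.70, 7.52, 7.31 and 7.43 in WT replicates 1 to 4. Both groups overlapped because WT replicate 1 lay below KO replicates 3 and 4. The means were 6.87 ± 0.33 in KO and 7.24 ± 0.37 in WT (SD, n = 4 each), a log2 fold change of -0.37 (standard error 0.24), the smallest p among the 10 probes and a limma adjusted p of 0.76. Within slide 1, where the 2 KO cultures lay below all 4 WT cultures, it was -0.64. Groups of 2 and 4 cultures separate more readily than groups of 4. The log2 fold change was -0.55 without WT replicate 1 and -0.05 with control-like probes as negative controls. Leaving out WT replicate 1 ends the overlap by construction, since that culture alone caused it. The other 3 Nrg1 probes stood between 4.14 and 5.85.

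Tgfa encodes transforming growth factor alpha. Its probe was detected on 0 of 8 arrays and stood at 4.21 to 4.27 in KO and 4.30 to 4.44 in WT, values that lie below the lowest detected level of each array and carry no order.

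Egfr, the EGF receptor, was read by 5 probes, of which 4 were detected on all 8 arrays. Probe ILMN_2693922 stood at 10.36, 10.65, 9.63 and 11.10 in KO replicates 1 to 4, against 9.94, 11.08, 10.64 and 10.76 in WT replicates 1 to 4. KO replicate 3 and WT replicate 1 were the lowest cultures, and this held for each of the 4 probes detected on all arrays. Probe ILMN_3128725 stood at 8.41, 9.28, 7.79 and 9.37 in KO and 7.83, 9.38, 8.87 and 8.78 in WT, and probe ILMN_3052260 at 8.30, 9.05, 7.41 and 9.06 in KO and 7.32, 8.97, 8.57 and 8.67 in WT. These 2 probes are annotated to another RefSeq transcript than the first, and both had the same 2 cultures lowest. Probe ILMN_1241496, listed under the old symbol 9030024J15Rik, stood at 8.56, 9.31, 8.32 and 9.86 in KO, against 8.07, 9.99, 9.11 and 9.16 in WT.

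The groups overlapped for all 5 Egfr probes. The first probe had means of 10.43 ± 0.62 in KO and 10.60 ± 0.48 in WT (SD, n = 4 each), a log2 fold change of -0.17 (standard error 0.34) and a limma adjusted p of 0.92, and its 95% interval ran from -0.95 to 0.61. The other 3 bright probes had log2 fold changes of -0.07, 0.00 and 0.07. The dimmest probe, ILMN_2614432, detected on 6 arrays, stood between 4.36 and 5.92 in KO and between 4.16 and 5.35 in WT, with a log2 fold change of 0.19, which was -0.19 within slide 1. Over the cultures, Egfr probes spanned 1.46 to 1.93 log2 units, so cultures within a group differed far more than the group means.

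Btc and Egfr stood at opposite ends in 2 cultures. KO replicate 3 was highest for Btc and among the lowest for Egfr, and WT replicate 2 lowest for Btc and among the highest for Egfr. This did not hold for WT replicate 1, which was among the lowest for Egfr (9.94 through the brightest probe) and stood at 9.29 for Btc, near the middle. Pearson's r between the Btc probe and the brightest Egfr probe was -0.75 over the 8 cultures (exact permutation p = 0.026, two-sided) and Spearman's rho was -0.79 (exact permutation p = 0.028). After Benjamini-Hochberg adjustment over the 10 pairs of Btc, Egfr, Erbb2, Hbegf and Nrg1 these p-values were 0.25 and 0.28, and 0 of the 10 pairs had an adjusted value under 0.05 (exact permutation tests). Pearson's r was -0.56 within the 6 cultures of slide 1 and -0.25 without WT replicate 2 and KO replicate 3. These 2 cultures were left out because they lay farthest from the median for Btc. Leaving out the ends of the range tends to lower r, so this cannot show whether the relation rests on them. Ereg was left out of these pairs because its cultures fall into separate levels.

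Erbb2 encodes the receptor that has no known ligand of its own and serves as a partner of the others. Its probe was detected on all 8 arrays and stood at 6.97, 7.11, 7.01 and 7.28 in KO replicates 1 to 4, against 6.95, 7.18, 7.51 and 7.06 in WT replicates 1 to 4. It varied least among the tested probes, with means of 7.10 ± 0.14 in KO and 7.18 ± 0.24 in WT (SD, n = 4 each). The log2 fold change was -0.08 with a standard error of 0.18 and a limma adjusted p of 0.93, and the 95% interval ran from -0.48 to 0.32. Within slide 1 it was -0.13.

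Erbb3, a receptor for neuregulins that needs a partner kinase and is known from Schwann cells, was near background. It stood at 4.31, 4.37, 4.71 and 4.34 in KO replicates 1 to 4, against 4.25, 4.18, 4.21 and 4.31 in WT replicates 1 to 4, and was detected in KO replicate 3 alone. The detection p-value there was 0.042, close to the cut of 0.05. The same culture had the highest values of 4 of the 5 kept Schwann markers, Sox10, Ngfr, Cdh19 and S100b, but not of Mbp, which stood at 8.32 there and at 9.92 in WT replicate 1, and the part of Schwann-type cells in the Erbb3 value was not tested.

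The question next to the ligands and receptors is whether the pathway around them differed. 5 lists with 72 genes were drawn up, of which 53 genes had kept probes, 84 in all. 0 of the 84 passed in limma. 5 had an unadjusted p under 0.05, or 5.95%, against 6.75% of all kept probes, and in 2 the groups did not overlap, or 2.38%, against 3.78%. 42 probes were higher and 42 lower in KO by sign, and the median was 0.00. on the log2 scale

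Of the other family genes, the remaining receptor Erbb4 had 2 probes, each detected on at most 3 arrays, and the ligand genes Epgn and Nrg4 were likewise not kept, while Nrg2 has no probe under its symbol in the annotation used here. Nrg3, a neuregulin that binds ErbB4, was kept through 1 probe near background, at a log2 fold change of -0.33 (standard error 0.20).

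The sheddases and their cofactors had 18 kept probes for 10 genes, 13 lower and 5 higher in KO by sign, and the median was -0.25 on the log2 scale and 0 past the threshold. Adam12, a metalloprotease reported to release heparin-binding EGF-like growth factor, had the smallest p of the list, with means of 7.58 ± 0.49 in KO and 8.28 ± 0.31 in WT (SD, n = 4 each) and a limma adjusted p of 0.73. Its second probe, near background, was higher in KO by sign, at 0.23 on the log2 scale. Adam17, the main protease for several EGF receptor ligands, stood at 8.93, 8.86, 8.47 and 8.93 in KO replicates 1 to 4, against 9.10, 9.90, 9.10 and 8.92 in WT replicates 1 to 4, through its brighter probe. Its log2 fold changes were -0.46 and, for the other probe, 0.15, with standard errors of 0.24 and 0.22, so the 2 probes differed in sign. The brighter probe was at -0.24 without WT replicate 2. Rhbdf1, an inactive rhomboid that helps Adam17 to the cell surface, was at 0.32 (standard error 0.25), and at 0.12 without KO replicate 3.

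The signal transducers had 22 kept probes for 13 genes, 9 higher and 13 lower in KO by sign, with a median of -0.06 and 0 past the threshold. Map2k1, the kinase MEK1, stood at 9.17, 9.45, 8.40 and 8.07 in KO replicates 1 to 4, against 9.64, 9.60, 9.24 and 9.54 in WT replicates 1 to 4. The groups overlapped, and KO replicates 3 and 4, both on slide 2, were the lowest. Its log2 fold change was -0.73 with a standard error of 0.30, a limma adjusted p of 0.73 and a value of -0.20 within slide 1. Ptpn11, the phosphatase SHP2, which passes signals on to Ras, was at 0.39 and 0.32 on the log2 scale through 2 of its 3 kept probes and at 0.24 through the brightest. The groups did not overlap for its probe ILMN_2743723, named after its values were seen, at 9.63, 9.59, 9.68 and 9.66 in KO, against 9.57, 8.81, 9.40 and 9.49 in WT. Without WT replicate 2 these 0.39 and 0.32 were 0.23 and 0.15.

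The feedback regulators had 23 kept probes for 13 genes, 14 higher and 9 lower in KO by sign, with a median of 0.12 and 0 past the threshold. Rnf41, a ubiquitin ligase that lowers ErbB3, had the smallest p of all 84 probes. Its probe ILMN_2589433 stood at 7.69, 7.79, 7.65 and 7.69 in KO replicates 1 to 4, against 7.01, 6.62, 6.95 and 7.04 in WT replicates 1 to 4, so every KO culture was above every WT culture. The log2 fold change was 0.80 with a standard error of 0.16 and a limma adjusted p of 0.68, and it was 0.84 within slide 1 and 0.12 with control-like probes as negative controls. Its other 2 probes were at 0.12 and -0.85, and the probe at -0.85 was dim, so the 3 Rnf41 probes disagreed.

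Usp8, a deubiquitinase that acts on internalised EGF receptor, was at 0.55 and 0.13 through its 2 kept probes, and was named after its values were seen. Dusp6, a phosphatase that switches off ERK, was at 0.62, 0.08 and -0.35 through its 3 probes, the brightest of which stood at 11.05 ± 0.16 in KO and 10.97 ± 0.14 in WT (SD, n = 4 each). Errfi1, an inhibitor that binds the EGF receptor kinase and is made in response to it, stood at 11.03, 11.40, 10.93 and 11.87 in KO replicates 1 to 4, against 10.67, 11.70, 11.10 and 10.98 in WT replicates 1 to 4, with overlapping groups and a log2 fold change of 0.19 (standard error 0.28), which was 0.0064 without KO replicate 4 and 0.39 without WT replicate 2. Ptpn1, the phosphatase PTP1B, was at -0.47, and at -0.17 within slide 1.

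The target genes had 20 kept probes for 16 genes, 14 higher and 6 lower in KO by sign, with a median of 0.11, 0 past the threshold and 0 with an unadjusted p under 0.05. Phlda1, an early response gene, stood at 12.24, 11.22, 11.37 and 11.73 in KO replicates 1 to 4, against 11.57, 9.28, 10.91 and 11.29 in WT replicates 1 to 4. Its lowest culture was WT replicate 2, as for Hbegf, and its log2 fold change of 0.88 (standard error 0.47, limma adjusted p 0.73) was 0.39 without that culture. Etv1, a transcription factor of the ETS family, was at -0.62 with a standard error of 0.37, and at -0.36 without WT replicate 2.

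**Figure D5:**
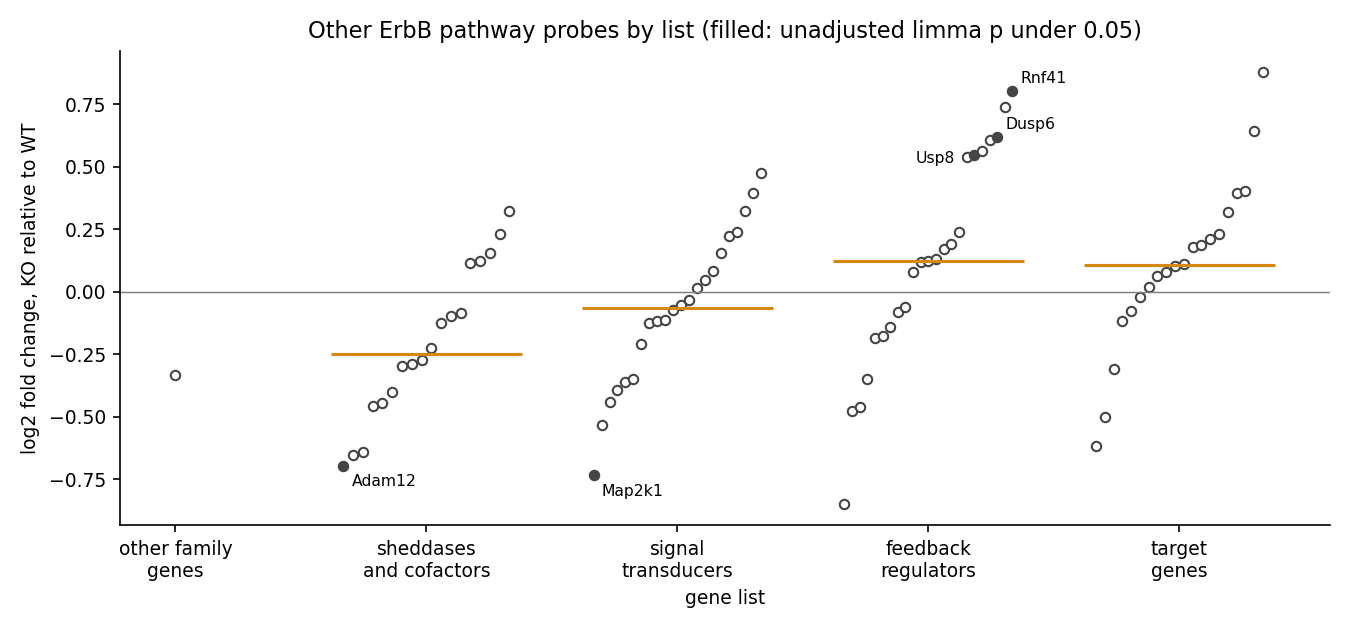
Log2 fold change of KO relative to WT (vertical axis) for the 84 kept probes of 5 ErbB pathway lists, ordered within each list, with the list median as a line where a list has over 1 probe. Filled points are the 5 probes with an unadjusted limma p under 0.05, Adam12 and Map2k1 lower and Rnf41, Dusp6 and Usp8 higher in KO; none passed after adjustment.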

How the data were processed

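Total RNA of 8 cultures was measured on Illumina bead arrays. Per the file headers, the deposited scanner table gives 4 columns per array: mean bead intensity, bead SD, bead count and detection p-value. It was not normalized between arrays. A second deposited table holds intensities that the authors normalized on a linear scale by a method not given in the sources used here, with array medians of 113 to 116 in KO and 114 to 115 in WT, and it keeps the rank order of the scanner values. The probe identifiers beside the scanner values did not go with them (Spearman correlation with the value table between -0.0083 and -0.0047 per array), so rows were matched by their ranks on the 8 arrays, which paired 46237 of 46237 rows. The value table's identifiers were used, and old symbols were replaced from RefSeq (35784 probes with 1 gene, 0 with several, 10453 with none).

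The neqc function (limma 3.58.1, R 4.3.3) gave the log2 values used here (background from the detection p-values, offset 16, quantile normalization). Probes detected (p-value under 0.05) on 4 or more of the 8 arrays were kept, 21275 in all, each tested on its own with lmFit and eBayes, two-sided, with Benjamini-Hochberg adjustment over all kept probes and a threshold of 0.05; the method was tested on simulated data. Fold changes are KO relative to WT. Levels of different probes were not compared. The number of arrays limits the precision, and a member probe rested on 20 to 73 beads per array.

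The members and gene lists were chosen with earlier results of these data known. All member probes are named. Of each pathway list, the probe with the smallest p in each direction and those of Errfi1, Adam17, Erbb4 and Dusp6 are named. For the 2 members with the highest SD over the cultures among probes detected on all 8 arrays, the 3 genes of smallest root mean square difference in pattern are named, among kept probes of similar SD. Alternatives covered normalization, background, the probe filter, slide, replicate number, probes per gene and single cultures; differences of medians were added after seeing the data.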

Additional observations from a re-analysis of the deposited data

Results flagged for a closer look

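Dixon's gap test at its 95% critical value marked 7 of 58 groups of 4 cultures as holding a culture far from the rest. For independent groups chance marks about 1 in 20. These groups were not independent, since several probes read the same gene in the same cultures. Some probes were also named for their values and some lay near background, so no excess over chance can be read from the 7. Among ligands, Hbegf stood at 6.91 in WT replicate 2, far below the other WT cultures. Ereg stood at 6.919 in KO replicate 1, far above the other KO cultures. Egf stood at 4.907 in KO replicate 2, below the other KO cultures, through the probe that came into view for its difference. Dixon's test there looks within KO only and says nothing on KO against WT. Among receptors, the dimmest Egfr probe stood at 4.156 in WT replicate 1. Among pathway genes, Adam17 stood at 6.737 in WT replicate 1 through its dimmer probe and at 8.468 in KO replicate 3 through its brighter probe, and the brightest Dusp6 probe stood at 11.18 in WT replicate 3.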

How the results depend on the processing

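Under every alternative and without each culture in turn, 0 tested EGF family or ErbB probes and 0 other pathway probes passed an adjusted p of 0.05; the control-like setting called 1 of 21189 probes, outside these genes. Of 515 recomputed log2 fold changes of named probes, 472 kept sign and, where tested, side of the threshold, and 38 changed sign. The other 5, all of the untested Egf probes, kept sign but moved by more than the SD. Tested probes were not marked by the size of a move. Changing the probe filter, taking 1 probe per gene or blocking by replicate number returned the main estimate by construction. Slide as a block returned the slide 1 estimate, so that result was counted for both settings. The 472 therefore hold repeats and overstate how stable the estimates were. With control-like probes as negative controls, the Dusp6 probe at 0.62 was at 0.02 and the Rnf41 probe at 0.80 was at 0.12. Replicate numbers did not pair the cultures by the rule that each correlation exceeds 0.1 (correlations of deviations 0.07 to 0.29), though 8 of 8 cultures correlated best with their own number, a hint from the data and not the design. The replicate block left every fold change as it was and moved the count with an unadjusted p under 0.05 to 1977, against 1435 without it, and for the pathway to 8, against 5. Over all settings and left-out cultures, 2 to 9 pathway probes had such a p, and in 0 (1 probe per gene) to 11 (slide 1) the groups did not overlap. The 9 came without WT replicate 1, where 1887 of all 21275 kept probes had such a p. Groups of 2 and 4 cultures, as on slide 1, separate more readily than groups of 4. The share of all kept probes was not counted there, so the 11 cannot be set beside the 3.78% of all 8 arrays. Slide 1 holds 2 KO and 4 WT arrays, and slide as a block gives the same estimate: 0.21 for the Dusp6 probe at -0.35, -0.19 for the dimmest Egfr probe, 0.13 for Egfr probe ILMN_3128725 and 0.49 for Ereg. With 4 other inputs (the authors' value table, uncorrected intensities, normexp with offset 50, and control-like probes as negative controls) that Egfr probe, which stood at 0.00, was at 0.034, 0.0051, 0.0031 and 0.019, and Ereg at 0.032, 0.021, 0.036 and 0.0033. Leaving out 1 culture gave -0.41 to 0.23, -0.088 to 0.47, -0.39 to 0.10, -0.28 to 0.42 and -0.30 to 0.31 for Egfr probes ILMN_1241496, ILMN_2614432, ILMN_2693922, ILMN_3052260 and ILMN_3128725, -0.56 to 0.33 for Ereg, -0.15 to 0.03 for Erbb2, 0.11 to 1.21 for Hbegf and 0.16 to 0.80 for Btc. Differences of medians were 0.12 for Hbegf and 0.07 for Btc, and changed sign for Egfr probes ILMN_2614432 (-0.0010) and ILMN_3128725 (0.026). Among pathway probes that 1 culture moved by over 1.5 times, Adam12 was at -0.46, Ptpn1 at -0.28 and the Dusp6 probe at -0.35 at -0.10 without KO replicate 3, and the dimmer Adam17 probe was at 0.014 without KO replicate 2. With no filter the Hbegf probe ILMN_2569725, detected on 0 arrays, had an unadjusted p under 0.05 and the groups did not overlap for Tgfa. Nrg1 had such a p with slide as a block and without WT replicate 1. Signal near background limits Egf, Ereg, Tgfa, Erbb3 and most Nrg1 probes; the cause of these shifts was not tested.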
